A study of Homo sapiens with 7 samples.

Results

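Collagen genes were examined in A549, a human lung adenocarcinoma line of epithelial origin, in cells sorted for β-galactosidase staining, a marker used for senescence. The members were all genes of the deposited table whose symbol has the form of a collagen alpha chain (COL, a number, A, a number), 25 of 14535 genes. They were divided into fibrillar (7), basement membrane (5), beaded (3) and other collagens (10). The cells of 4 libraries had undergone cyclic stretch for 24 h (15% elongation, 15 cycles per min), and those of 3 libraries had received 100 nM doxorubicin, a topoisomerase poison, for 24 h. Staining was assessed after 6 days in both groups, and RNA came from the positive cells. No untreated cells were analysed here, so "lower in stretch" and "higher in doxorubicin" are the same statement. All libraries come from 1 cancer cell line. Whether they were grown as separate cultures is not stated, and the p-values then reflect only library-to-library spread, which may be technical.

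A collagen molecule is a helix wound from alpha chains that are encoded by separate genes. Fibrillar collagens, such as types I, III and V, assemble into the fibrils of connective tissue, and type V is built into type I fibrils, where it limits their width. Type IV forms the network of basement membranes, type VI forms beaded filaments next to them, and the other types link, coat or span these structures. In the lung most fibrillar collagen is made by fibroblasts, whereas epithelial cells are known for laying down type IV.

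Total counts lay between 5636386 and 7419778 in stretch libraries 4 to 7 and between 2611739 and 4644250 in doxorubicin libraries 1 to 3. The doxorubicin libraries differed among themselves. Library 2 was the shallowest, with 21.2% of genes at 0 counts and 30.6% of its counts in the single gene EIF4A2, and library 3 was closest to stretch in both measures, at 5.02% and 10.8% (library 1 had 10.8% and 16.1%). The stretch libraries had at most 4.79% of genes at 0 and at most 2.87% of counts in EIF4A2. Collagens took 0.0604% to 0.0908% of the counts in stretch, and 0.0517%, 0.0176% and 0.0979% in doxorubicin libraries 1, 2 and 3. Levels are given in CPM, counts scaled to a common library size, with library sizes adjusted by TMM, a method that sets the bulk of genes equal between libraries. A level of 3 counts, taken as detection, correspond to 0.321 to 0.401 CPM in stretch and to 1.19, 2.59 and 0.567 CPM in doxorubicin libraries 1, 2 and 3. In bulk samples, fewer cells that express a gene and less of its RNA per cell cannot be told apart.

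COL6A2 and COL5A1 were lower in stretch than in doxorubicin, each by more than 4-fold, and no collagen passed the test in the other direction. Of the 25 members, 17 had enough counts to be tested, and these 2 passed an adjusted p of 0.05 in the quasi-likelihood test of edgeR, Benjamini-Hochberg adjusted over 11230 genes. Over all tested genes 2.32% passed, 1.97% lower in stretch and 0.356% higher. At an unadjusted p under 0.05 by edgeR, 5 of 17 collagens lay on the doxorubicin side and 1, COL4A6, on the stretch side, where 14.5% and 8.66% of all genes did. DESeq2 passed COL6A1 as well as COL5A1 and COL6A2, limma-voom the same 2 as edgeR, and neither passed a collagen toward stretch. Over all genes these tools passed 10% and 1.66%. In all, 13 of the 17 tested members were lower in stretch in value (48.8% of all tested genes were), but 8 of 17 were when libraries were scaled by their totals alone, a scaling that moved the median of all genes to 0.71. The median log2 fold change of the 17 was -0.58, against 0.02 for all tested genes. The 4 stretch libraries and the 3 doxorubicin libraries did not overlap for 5 of the 17 members, which is 29.4%, where all tested genes gave 21.4%. Of these 5, COL5A1, COL6A1 and COL6A2 were lower in every stretch library (17.6% of members and 9.88% of all genes), and COL4A6 and COL21A1 were higher (11.8% of members and 11.5% of all genes).

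**Figure D1:**
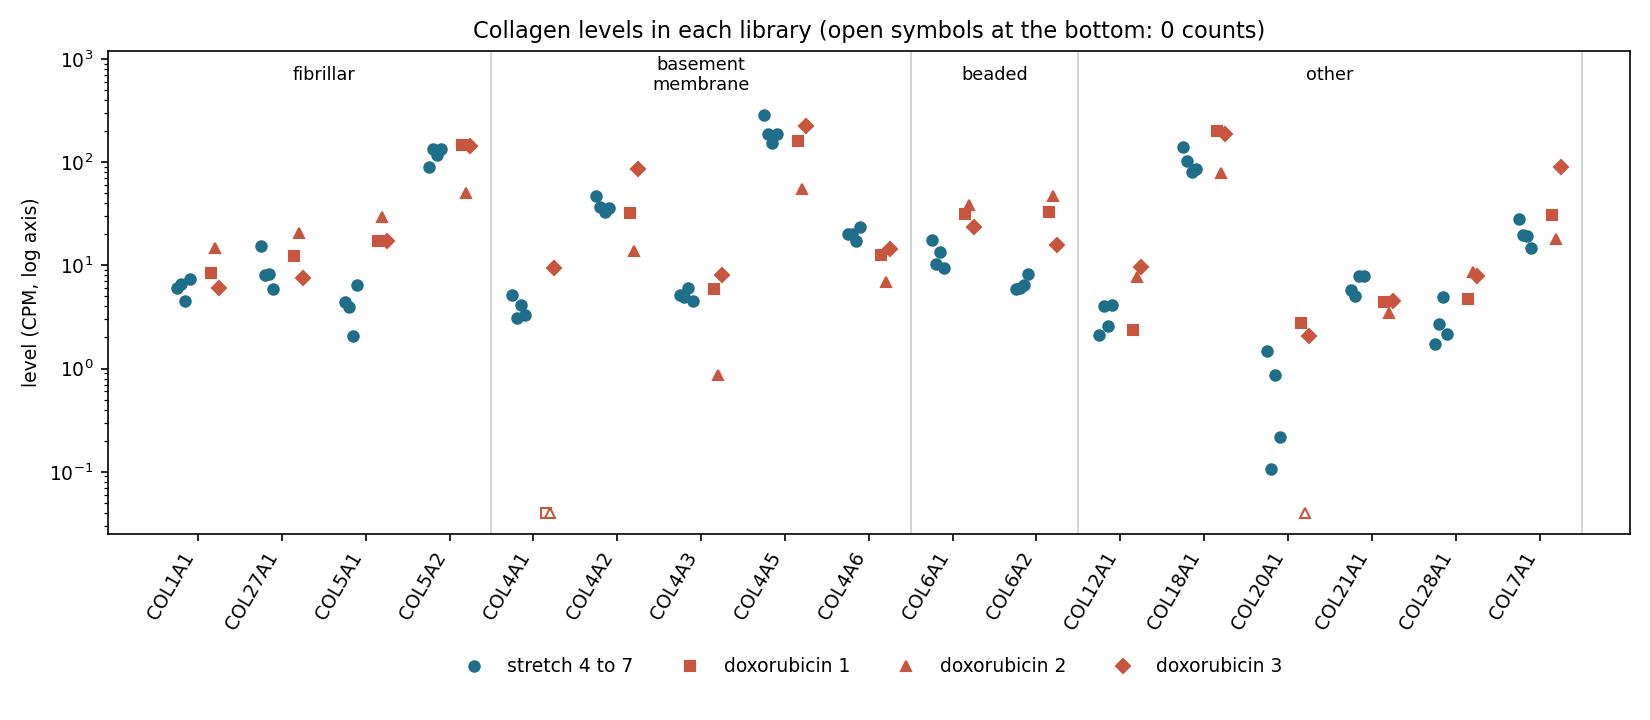
Level of each of the 17 tested collagens in each library (CPM, log axis), by class, with stretch libraries to the left of doxorubicin libraries for each gene. COL5A1, COL6A1 and COL6A2 lie lower in all 4 stretch libraries than in any doxorubicin library, and COL4A1 is at 0 counts in doxorubicin libraries 1 and 2.

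Among the beaded collagens, COL6A2, the gene of the alpha 2 chain of type VI, gave the lowest adjusted p of the family. It stood at 5.87, 6.10, 6.49 and 8.28 CPM in stretch libraries 4, 5, 6 and 7, against 33.0, 46.7 and 15.9 CPM in doxorubicin libraries 1, 2 and 3. The groups did not overlap, and doxorubicin library 3 was the closest to stretch. The log2 fold change, stretch minus doxorubicin, was -2.22 (SE 0.39, edgeR adjusted p = 0.0223), which is 4.64-fold in the fit. Mean levels were 6.69 ± 1.09 CPM (SD, n = 4) in stretch and 31.8 ± 15.4 CPM (SD, n = 3) in doxorubicin. COL6A2 lies on chromosome 21, from 46098097 to 46132849 (GRCh38, GENCODE 29).

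COL6A1, the gene of the alpha 1 chain of type VI and a neighbour of COL6A2 on the same strand (chromosome 21, 45981737 to 46005050), did not pass by edgeR. It stood at 17.8, 10.3, 13.4 and 9.36 CPM in stretch libraries 4 to 7, against 31.8, 38.0 and 23.4 CPM in doxorubicin libraries 1 to 3. On these TMM-scaled levels the groups did not overlap here either, and doxorubicin library 2 was again the highest. Before scaling, COL6A1 had 80, 44 and 124 counts in doxorubicin libraries 1, 2 and 3. The log2 fold change was -1.28 (SE 0.34, 95% interval -2.02 to -0.53, edgeR adjusted p = 0.0682). With library totals alone it was -0.45 (edgeR adjusted p = 0.430), against a median of 0.71 over all genes. COL6A3, the gene of the third chain of the common type VI molecule, had 0 to 2 counts in every library and was not tested. The summed level of the beaded collagens was 16.4 to 23.9 CPM in stretch and 39.3 to 86.5 CPM in doxorubicin.

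Among the fibrillar collagens the 2 type V chains differed from each other in pattern. COL5A1, the gene of the alpha 1 chain (chromosome 9, 134641774 to 134844843), stood at 4.41, 3.96, 2.05 and 6.45 CPM in stretch libraries 4 to 7, against 17.1, 29.4 and 17.2 CPM in doxorubicin libraries 1 to 3. Every stretch library lay below every doxorubicin library, and libraries 1 and 3 were nearly level. The log2 fold change was -2.30 (SE 0.42, edgeR adjusted p = 0.0255). Mean levels were 4.22 ± 1.81 CPM (SD, n = 4) in stretch and 21.2 ± 7.08 CPM (SD, n = 3) in doxorubicin. COL5A2, the gene of the alpha 2 chain (chromosome 2, 189031896 to 189225312), stood at 90.2, 134, 118 and 133 CPM in stretch libraries 4 to 7, against 145, 50.2 and 143 CPM in doxorubicin libraries 1 to 3. Its groups overlapped, with doxorubicin library 2 far below the rest, and its log2 fold change of 0.07 had a 95% interval from -0.77 to 0.91.

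The calls on COL5A1 and COL6A2 depended on single libraries, although neither gene changed direction in any of 17 alternatives. By edgeR both passed without doxorubicin library 2 (adjusted p = 0.0319 for COL5A1 and 0.0255 for COL6A2) and without doxorubicin library 3 (0.00242 and 0.000403). Neither passed without doxorubicin library 1 or without any single stretch library, where edgeR's adjusted p lay between 0.0695 and 0.123 for COL5A1 and between 0.0661 and 0.119 for COL6A2. In those 5 settings edgeR passed 0.109% to 0.359% of all genes, against 2.47% without doxorubicin library 2 and 32.2% without doxorubicin library 3. Against doxorubicin library 3 alone, where the spread of stretch stands in for that of doxorubicin, the log2 fold changes were -2.01 and -1.23, and neither passed. With library totals alone they were -1.47 and -1.29, against a median of 0.71 over all genes.

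**Figure D2:**
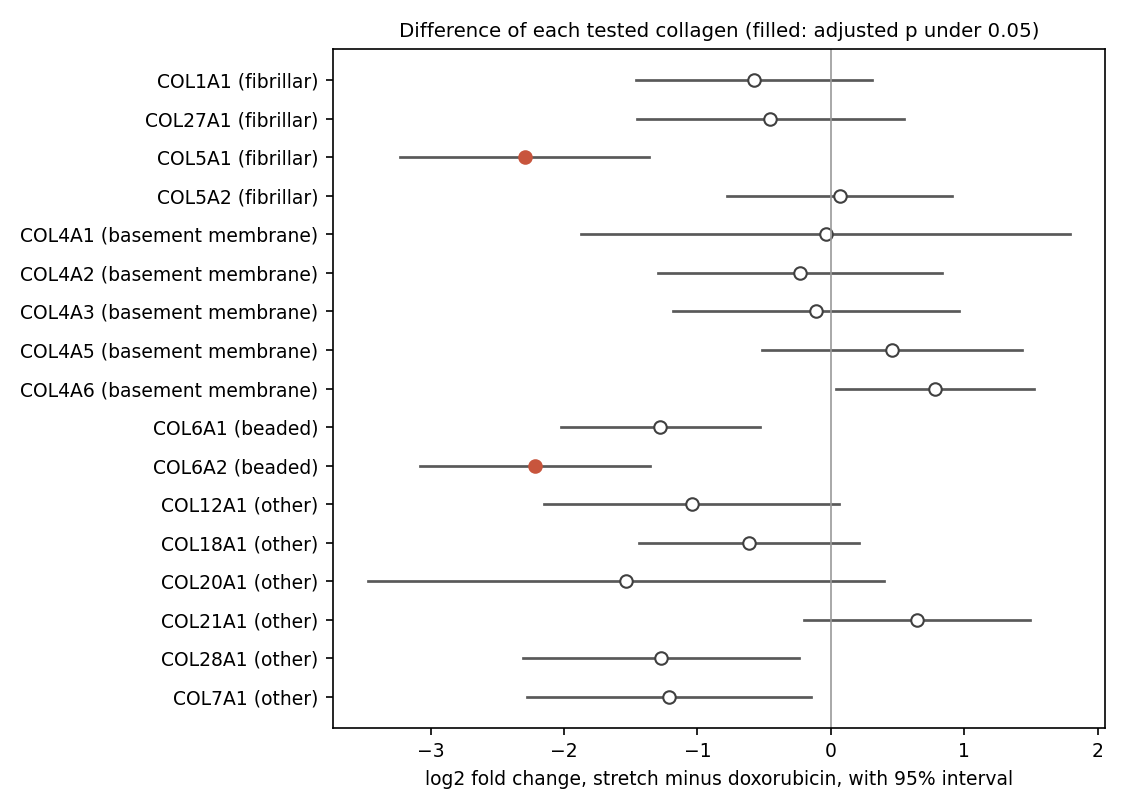
Log2 fold change (stretch minus doxorubicin) of the 17 tested collagens with its unadjusted 95% interval, where values left of 0 are lower in stretch. The intervals of COL6A2, from -3.08 to -1.35, and COL5A1, from -3.23 to -1.36, lie farthest from 0, and those of COL6A1, COL7A1, COL28A1 and COL4A6 also leave out 0.

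The other fibrillar chains stood at 20.8 CPM or less in every library, and COL27A1 averaged 11.2 CPM over all libraries, near the 11.5 CPM of COL5A1. COL1A1, the gene of the main chain of type I, stood at 4.54 to 7.32 CPM in stretch and at 8.34, 14.7 and 6.05 CPM in doxorubicin libraries 1, 2 and 3, with overlapping groups (log2 fold change -0.58, 95% interval -1.46 to 0.31). COL27A1, a fibrillar collagen best known from cartilage, stood at 15.5, 8.13, 8.22 and 5.92 CPM in stretch libraries 4 to 7 and at 12.3, 20.8 and 7.56 CPM in doxorubicin libraries 1 to 3, and its groups overlapped too. COL3A1 had 1 to 8 counts in stretch and 0 to 7 in doxorubicin. COL24A1 had 0 to 8 counts in stretch and at most 1 in doxorubicin, and COL11A2 had 1 to 4 counts in stretch and 0 in all 3 doxorubicin libraries, where up to 3 counts per library cannot be told from 0. These 3 were not tested. COL1A2, the partner of COL1A1 in type I, was not analysed here.

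With all libraries, no type IV chain passed by edgeR, DESeq2 or limma-voom (each gave 0 of 5, and 1 of 5 had an unadjusted p under 0.05 by edgeR). Toward stretch, COL4A1 and COL4A6 passed by voom with library quality weights, and COL4A1 by edgeR without doxorubicin library 3. These settings passed 47% and 32.2% of all genes. COL4A5, the gene of the alpha 5 chain, stood at 284, 189, 153 and 187 CPM in stretch libraries 4 to 7, against 162, 55.3 and 222 CPM in doxorubicin libraries 1 to 3. COL4A6, its neighbour on chromosome X, stood at 20.0, 20.2, 17.4 and 23.5 CPM in stretch libraries 4 to 7, against 12.7, 6.92 and 14.6 CPM in doxorubicin libraries 1 to 3. COL4A5 overlapped between the groups, whereas COL4A6 was higher in every stretch library, at a log2 fold change of 0.78 (SE 0.34, 95% interval 0.04 to 1.52, edgeR adjusted p = 0.197). COL4A2, the gene of the alpha 2 chain found in most basement membranes, stood at 47.0, 36.8, 33.2 and 36.3 CPM in stretch libraries 4 to 7, against 32.2, 13.8 and 85.3 CPM in doxorubicin libraries 1 to 3. Doxorubicin library 3 was above all stretch libraries and library 2 below them, so its log2 fold change of -0.23 turned to 0.71 without library 3 and to -1.14 with library 3 alone. COL4A3 stood at 4.52 to 6.05 CPM in stretch and at 5.96, 0.865 and 8.13 CPM in doxorubicin libraries 1, 2 and 3.

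COL4A1, the gene of the alpha 1 chain that pairs with the product of COL4A2, was singled out after its values were seen. It had 39, 29, 38 and 31 counts in stretch libraries 4 to 7, against 0, 0 and 50 counts in doxorubicin libraries 1, 2 and 3. Of the doxorubicin libraries, only library 3 therefore had counts of COL4A1, at 9.45 CPM, above the stretch range of 3.10 to 5.21 CPM. A count of 0 allows up to 1.19 CPM in library 1 and up to 2.59 CPM in library 2, both below all stretch libraries. All 5 type IV genes were highest in library 3 among the doxorubicin libraries and lowest, or tied for lowest, in library 2. Over all tested genes, 44.0% were highest in library 3 and 48.2% lowest in library 2. Library 2 was the highest doxorubicin library for both tested type VI genes, 3 of 4 fibrillar genes, 1 of 6 other collagens and 33.9% of all tested genes. Of the 6 other collagens, 3 were highest in library 3 and 4 were lowest in library 2. The part of library depth and of the EIF4A2 share in these orders was not tested.

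Ratios of 2 chains within a library do not depend on the scaling between libraries, and were used to compare libraries, not the amounts of the chains. Counts of COL5A2 over COL5A1 were 20.5, 33.9, 57.5 and 20.6 in stretch libraries 4 to 7, against 8.49, 1.71 and 8.31 in doxorubicin libraries 1 to 3. The groups did not overlap, with a difference of 2.61 in mean log2 ratio, stretch minus doxorubicin. The two-sided exact permutation test gave p = 0.0571, the smallest that 35 splits allow, and 0.114 after adjustment over the 2 ratios tested. Counts of COL6A2 over COL6A1 were 0.331, 0.594, 0.484 and 0.885 in stretch libraries 4 to 7, against 1.04, 1.23 and 0.677 in doxorubicin libraries 1 to 3. Stretch library 7 overlapped with doxorubicin library 3 (difference -0.82, exact permutation p = 0.114, adjusted 0.114).

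Counts of COL4A1 over COL4A2 were 0.111, 0.0843, 0.124 and 0.0920 in stretch libraries 4 to 7, and 0.111 in doxorubicin library 3, inside the stretch range. They were 0 in doxorubicin libraries 1 and 2, where a detection level of 3 counts allows ratios of up to 0.0370 and 0.188. The ratio of doxorubicin library 1 was thus below those of all stretch libraries and of doxorubicin library 3. That of doxorubicin library 2 was not resolved at its depth. COL4A6 over COL4A5, a ratio added after the values were seen, was 0.0706 to 0.125 in stretch and 0.0655 to 0.125 in doxorubicin, with no such gap.

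**Figure D3:**
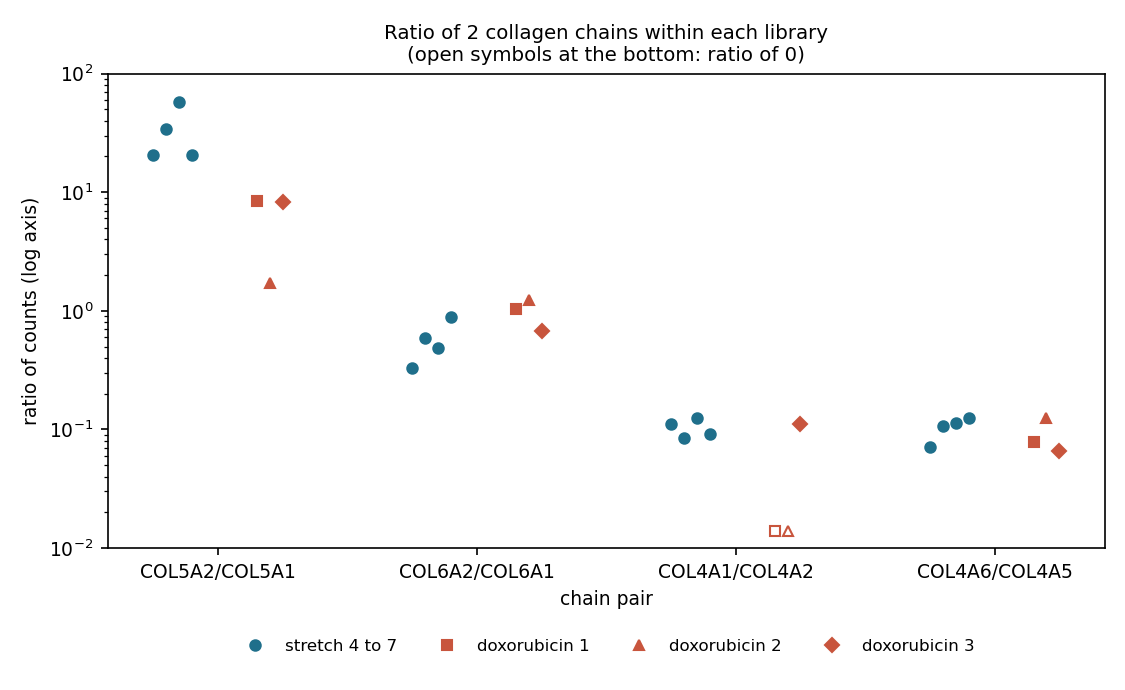
Ratio of the counts of 2 collagen chains within each library (log axis), with stretch libraries to the left of doxorubicin libraries in each pair. COL5A2 over COL5A1 lies at 20.5 to 57.5 in stretch and at 1.71 to 8.49 in doxorubicin, and COL4A1 over COL4A2 is 0 in doxorubicin libraries 1 and 2.

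COL4A1 and COL4A2 lie head to head on chromosome 13, COL4A1 on the minus and COL4A2 on the plus strand. In the RefSeq promoter table (GRCh38.p14), which matched 19 of the 25 members by symbol, only 126 bases lie between their starts, and 379 lie between those of COL4A6 and COL4A5. The sequences below are the bases before the RefSeq start of COL5A1 and COL6A2, the 2 genes that passed, and of COL4A5. The whole stretch between the RefSeq starts of COL4A1 and COL4A2, whose counts came apart in doxorubicin library 1, is also given. GENCODE places the starts of COL5A1 and COL6A2 earlier, at 134641774 and 46098097, so by its positions these stretches end inside the genes. The stretch of COL4A1 and COL4A2 overlaps both genes by GENCODE, where COL4A1 reaches 110307233 and COL4A2 begins at 110305812. All sequences are written on the plus strand, 5′ to 3′, with capitals for the GC box GGGCGG and the CCAAT box on either strand. No marked occurrence overlaps another.
COL5A1, 250 bases, chr9:134641553-134641802: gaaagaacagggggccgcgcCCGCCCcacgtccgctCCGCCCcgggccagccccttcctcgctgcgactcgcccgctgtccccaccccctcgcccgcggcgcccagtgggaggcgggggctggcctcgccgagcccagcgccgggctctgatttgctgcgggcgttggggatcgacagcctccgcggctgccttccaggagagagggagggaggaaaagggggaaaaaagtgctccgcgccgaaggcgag
COL6A2, 250 bases, chr21:46097862-46098111: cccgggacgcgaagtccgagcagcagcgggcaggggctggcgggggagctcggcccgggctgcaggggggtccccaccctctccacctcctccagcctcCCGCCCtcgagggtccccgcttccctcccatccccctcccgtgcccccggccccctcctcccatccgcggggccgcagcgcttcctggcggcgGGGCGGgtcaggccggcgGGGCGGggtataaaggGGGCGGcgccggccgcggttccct
COL4A1 and COL4A2, 126 bases, chr13:110307158-110307283: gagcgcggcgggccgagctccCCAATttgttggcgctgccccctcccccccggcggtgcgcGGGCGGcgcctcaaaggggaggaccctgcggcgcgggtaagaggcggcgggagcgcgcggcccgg
COL4A5, 250 bases, chrX:108439588-108439837: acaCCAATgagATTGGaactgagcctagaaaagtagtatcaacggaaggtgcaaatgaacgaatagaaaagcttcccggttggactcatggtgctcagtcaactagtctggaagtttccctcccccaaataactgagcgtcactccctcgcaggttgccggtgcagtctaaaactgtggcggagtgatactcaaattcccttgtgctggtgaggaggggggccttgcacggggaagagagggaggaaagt

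The COL6A2 stretch held 4 GC boxes and 1 TATA box (TATAAA, left in lower case), and the COL5A1 stretch held 2 GC boxes. A GC box stood in 42.2% and TATAAA in 11.2% of the 250-base stretches before the starts of 27305 genes. The 126 bases shared by COL4A1 and COL4A2 held 1 GC box and 1 CCAAT box, which stood in 34.5% and 21.9% of stretches of that length. The COL4A5 stretch held 2 CCAAT boxes, present in 33.0% of 250-base stretches, and no GC box. The AP-1 letters TGANTCA and the SMAD letters CAGACA stood in none of the 4 on either strand, and in 6.6% and 13.6% of all 250-base stretches. Over the 19 matched members, 9 held a GC box and 6 a CCAAT box, and their median GC content was 61.2%, against 57.6% over all genes. A match describes the letters and is no evidence of a bound factor.

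Among the other collagens, none passed by edgeR, DESeq2 or limma-voom, and 2 of 6 tested, COL7A1 and COL28A1, had an unadjusted p under 0.05 by edgeR. COL18A1, the gene of a basement membrane collagen whose end is cleaved off as endostatin, stood at 141, 102, 80.1 and 86.0 CPM in stretch libraries 4 to 7, against 199, 77.8 and 189 CPM in doxorubicin libraries 1 to 3. The groups overlapped through doxorubicin library 2 (log2 fold change -0.61, 95% interval -1.44 to 0.21). COL18A1 shares exon sequence with SLC19A1 on the opposite strand, as do COL4A2, COL4A3 and COL9A3 with other genes. Reads from a shared part cannot be told apart without strand, and whether counting used strand is not given in the sources used here. Which part of each gene was read was not examined.

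COL7A1, the gene of the anchoring fibrils that fasten epithelium to the matrix beneath it, stood at 28.3, 19.7, 19.2 and 14.6 CPM in stretch libraries 4 to 7, against 30.6, 18.2 and 90.2 CPM in doxorubicin libraries 1 to 3. Library 3 set the doxorubicin mean, and library 2 lay within the stretch range. The log2 fold change was -1.21 (SE 0.48, edgeR adjusted p = 0.166). It was -0.25 without doxorubicin library 3 and -2.12 with library 3 alone, where edgeR gave an adjusted p of 0.0150 and COL7A1 was the only collagen to pass.

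COL28A1, a collagen with von Willebrand factor domains, stood at 1.74 to 4.97 CPM in stretch and at 4.77, 8.65 and 7.94 CPM in doxorubicin libraries 1, 2 and 3, overlapping only at library 1 (log2 fold change -1.28, edgeR adjusted p = 0.142). COL21A1, of the class that coats fibrils, stood at 5.03 to 7.89 CPM in stretch and at 4.37, 3.46 and 4.54 CPM in doxorubicin libraries 1, 2 and 3, with no overlap. COL12A1, of the same class, stood at 2.14 to 4.09 CPM in stretch and at 2.38, 7.78 and 9.64 CPM in doxorubicin libraries 1, 2 and 3. COL20A1 had 1 to 11 counts in stretch and 7, 0 and 11 counts in doxorubicin libraries 1, 2 and 3. COL9A3, COL13A1, COL17A1 and COL26A1 had at most 6 counts in any library and were not tested.

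**Figure D4:**
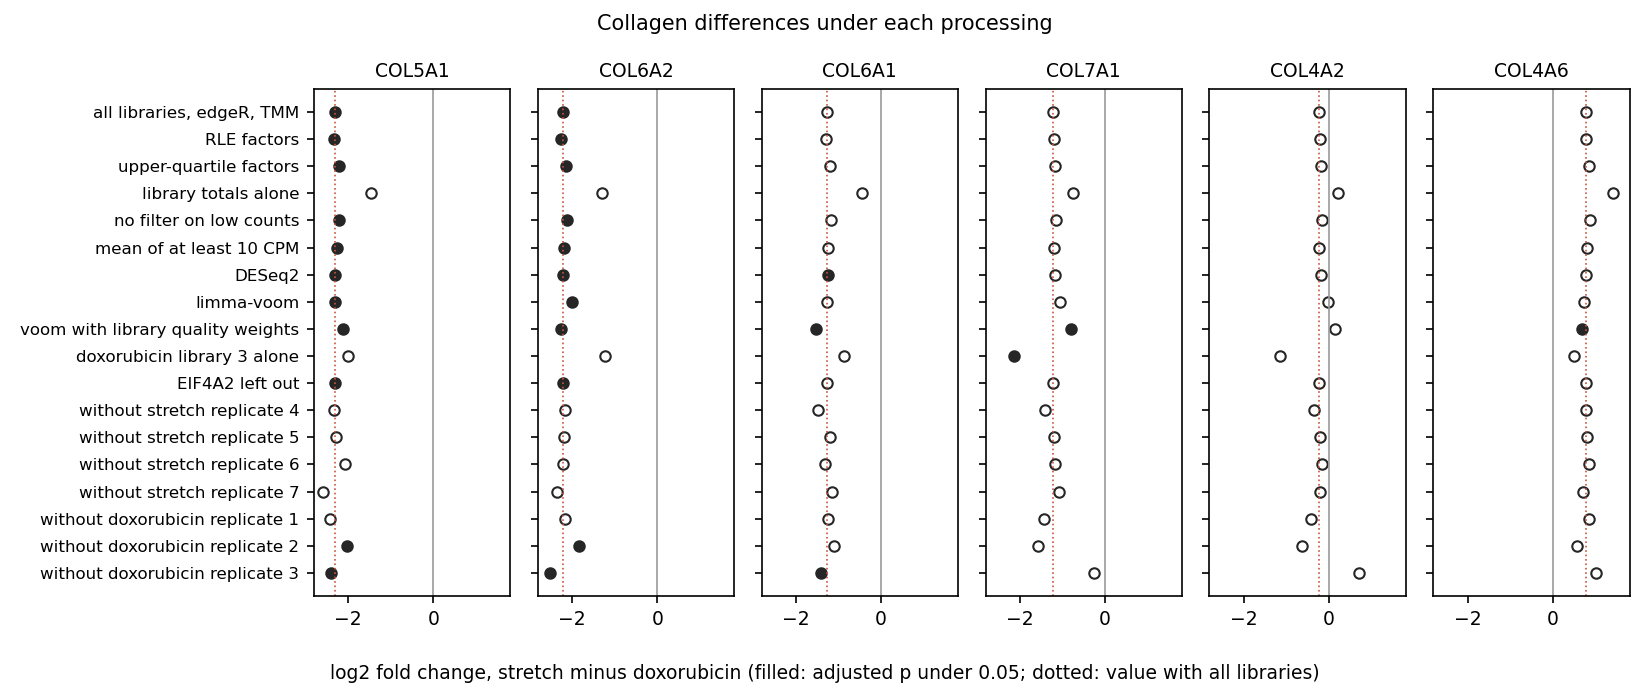
Log2 fold change (stretch minus doxorubicin) of 6 collagens with all libraries and under each of 17 alternatives, filled where the adjusted p is under 0.05. COL5A1 and COL6A2 stay left of 0 throughout but lose the call in 7 alternatives each, and COL4A2 crosses 0, reaching 0.71 without doxorubicin library 3.

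The genes that make, cross-link, bind and degrade collagen did not move as a block. Of 73 tested genes in 7 lists, 3 passed by edgeR, all lower in stretch, which is 4.11% where all tested genes gave 2.32% in either direction and 1.97% lower in stretch. The median log2 fold change was -0.08. For the counts by list that follow, 23.2% of all genes had an unadjusted p under 0.05 by edgeR, DESeq2 passed 10% and limma-voom 1.66%. Of the 73, 32 had an unadjusted p under 0.05 by edgeR, and limma-voom passed 1. DESeq2 passed 22 of the 82 genes of these lists to which it gave an adjusted p, not all of them among the 73. In the folding and modification list, which holds the prolyl and lysyl hydroxylases and the collagen chaperones, 0 of 18 passed by edgeR (6 at an unadjusted p under 0.05, limma-voom 0). DESeq2 passed 3 genes of this list, among them COLGALT2, which edgeR did not test. The median of the 18 was 0.28. The collagen chaperone SERPINH1, also called HSP47, stood at 48.3 to 78.5 CPM in stretch and 57.7 to 72.6 CPM in doxorubicin. PPIB, a prolyl isomerase of the endoplasmic reticulum, stood at 919.6 to 1122 CPM in stretch and 523 to 828 CPM in doxorubicin, with no overlap (edgeR adjusted p = 0.228). P4HB, a subunit of prolyl 4-hydroxylase, and FKBP10, a collagen chaperone, had overlapping groups and log2 fold changes of 0.31 and -0.87.

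In the export list, which holds the coat proteins that carry procollagen out of the endoplasmic reticulum, 0 of 11 passed by edgeR (5 at an unadjusted p under 0.05, DESeq2 2, limma-voom 0), with a median of 0.24. Its most abundant members, SEC13, SEC31A and CTAGE5 (now MIA2), had log2 fold changes of 0.48, -0.83 and -0.72. A separate entry named MIA2 had at most 8 counts in any library and was not tested. Among enzymes that remove propeptides and cross-link fibrils, 0 of 8 passed by edgeR (3 at an unadjusted p under 0.05, DESeq2 2, limma-voom 0), with a median of -0.80. BMP1, the procollagen C-proteinase, stood at 26.8, 30.1, 27.1 and 23.5 CPM in stretch libraries 4 to 7, against 65.1, 149 and 38.6 CPM in doxorubicin libraries 1 to 3. Its groups did not overlap, at a log2 fold change of -1.63 (adjusted p = 0.0643 by edgeR and 0.0103 by DESeq2). TGM2, a transglutaminase, and LOXL2, a lysyl oxidase, had log2 fold changes of -0.51 and -0.77.

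Among collagen receptors 0 of 11 passed by edgeR (6 at an unadjusted p under 0.05, DESeq2 4, limma-voom 0). ITGB1, the shared beta chain of collagen-binding integrins, had a log2 fold change of 0.04. MRC2, an endocytic collagen receptor, and GPR56 (now ADGRG1), a receptor for type III collagen, had -0.83 and -1.94. GPR56 stood at 101 to 173 CPM in stretch and 237 to 1048 CPM in doxorubicin (adjusted p = 0.0566 by edgeR and 0.00404 by DESeq2). Among degrading enzymes edgeR passed 2 of 9, MMP2 and MMP15, against 2.32% of all genes (median -0.10). DESeq2 passed these and CTSL, and limma-voom passed none, with adjusted p = 0.0822 for MMP2 and 0.0710 for MMP15. MMP2, a gelatinase, stood at 1.87, 4.17, 2.38 and 4.63 CPM in stretch libraries 4 to 7, against 20.6, 98.6 and 8.32 CPM in doxorubicin libraries 1 to 3, with library 2 far above the rest. Its log2 fold change was -3.63 (edgeR adjusted p = 0.0341), and -2.09 without library 2. Leaving out any stretch library or doxorubicin library 1 ended the call, with edgeR adjusted p values of 0.0908 to 0.160. MMP15, a membrane-bound metalloproteinase, stood at 17.5 to 29.9 CPM in stretch and at 70.3, 183 and 42.2 CPM in doxorubicin libraries 1, 2 and 3 (log2 fold change -2.06, edgeR adjusted p = 0.0469). The edgeR adjusted p of MMP15 was 0.0515 with RLE factors, and without a single library it passed only without doxorubicin library 3. The cathepsins CTSL and CTSB and the prolidase PEPD, none of which passed by edgeR, had log2 fold changes of 1.32, -0.86 and 0.05, and DESeq2 passed CTSL as higher in stretch (adjusted p = 0.0338).

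SPARC, a collagen-binding matrix protein, passed by edgeR among 5 tested genes of the fibril-associated matrix (median -1.69, 4 at an unadjusted p under 0.05, DESeq2 3, limma-voom 1). It stood at 3.74, 2.14, 2.38 and 3.12 CPM in stretch libraries 4 to 7, against 13.1, 15.6 and 13.0 CPM in doxorubicin libraries 1 to 3. The doxorubicin libraries were nearly level, and the log2 fold change was -2.27 (SE 0.35, edgeR adjusted p = 0.0147). SPARC also passed with doxorubicin library 3 alone, at -2.18. Without a single library edgeR gave SPARC adjusted p values from 0.00183 to 0.0974, the highest without stretch library 6. TGFBI, FN1 and THBS1, other matrix proteins, did not pass by edgeR or limma-voom, at log2 fold changes of -1.77, -1.69 and 0.03. DESeq2 passed TGFBI (adjusted p = 0.00628) and FN1 (0.0351) as lower in stretch. Among 11 tested basement membrane partners, which include the laminins and nidogens, edgeR passed 0 (5 at an unadjusted p under 0.05, limma-voom 0). DESeq2 passed 5 partners, among them NID1, which edgeR did not test. The laminin chains LAMC1, LAMA5 and LAMB1 had log2 fold changes of -0.13, -0.37 and 0.59.

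**Figure D5:**
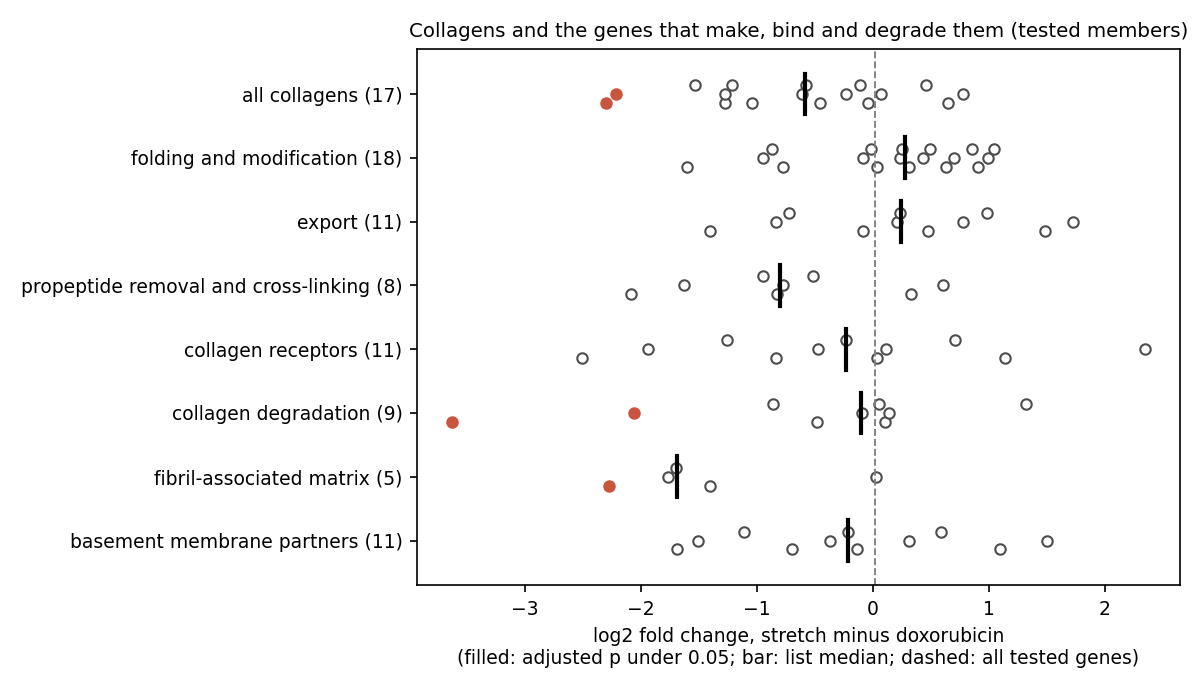
Log2 fold change (stretch minus doxorubicin) of the tested collagens and of the tested genes of 7 lists, 1 point per gene, with bars at list medians and a dashed line at the median of all tested genes, 0.02. Filled points, at the left, are COL5A1, COL6A2, MMP2, MMP15 and SPARC.

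Markers of epithelium and of other cell types were read in the same libraries. Epithelial markers summed to 2057 to 2396 CPM in stretch and 3288 to 6769.5 CPM in doxorubicin over 7 of 8 listed genes, mostly from the keratins KRT7, KRT8 and KRT18. Of these KRT18 was lower in stretch (edgeR adjusted p = 0.0199). EPCAM, an epithelial adhesion molecule, ran the other way, at 10.2 to 14.6 CPM in stretch and 0.865 to 4.54 CPM in doxorubicin (log2 fold change 1.79, edgeR adjusted p = 0.0574). KRT19 and CDH1 had overlapping groups, with log2 fold changes of 0.21 and -0.07. Fibroblast markers, 6 of 10 listed, summed to 9.25 to 12.6 CPM in stretch and 12.1 to 30.3 CPM in doxorubicin, led by THY1 at 4.01 to 7.57 CPM in stretch and 7.75 to 24.2 CPM in doxorubicin. DCN, a marker of fibroblasts, had 2 to 5 counts in stretch and 1 to 8 in doxorubicin. Its levels, 0.215 to 0.668 CPM and 0.865 to 1.99 CPM, did not overlap, but 1 count in doxorubicin library 2 is below detection. FAP had at most 1 count in stretch and at most 3 in doxorubicin. Means in stretch and doxorubicin were 1.74 and 1.52 CPM for LUM, 1.01 and 0.725 CPM for FBLN1, and 1.53 and 1.96 CPM for PDGFRA. Endothelial markers, 2 of 8 listed, summed to 2.16 to 3.01 CPM in stretch and at most 2.08 CPM in doxorubicin. CDH5 had 0 to 9 counts in stretch and 0 in all doxorubicin libraries, and its highest stretch level, 0.963 CPM, lies below what 3 counts are worth in doxorubicin libraries 1 and 2. Leukocyte markers, 4 of 8 listed, summed to 58.8 to 61.8 CPM in stretch and 101 to 143 CPM in doxorubicin, and CD68, a lysosomal protein of macrophages, was lower in stretch (18.6 and 75.6 CPM on average in stretch and doxorubicin, edgeR adjusted p = 0.0158). CD14 and LYZ had overlapping groups, with log2 fold changes of -0.03 and 0.06. The part of the epithelial, fibroblast and leukocyte marker sums in the collagen differences was not tested.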

How the data were processed

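RNA of 7 A549 libraries was measured by Ion AmpliSeq, a PCR panel with an amplicon per gene, per the labels' protocols. Such reads carry no molecular identifiers, so limits from counts cover counting error only. The authors deposited 1 table of whole numbers, read here as rounded estimated counts of genes without scaling of libraries. The submitters' processing notes name fastp 0.20.1, Salmon 1.9 and GRCh38, while the annotation release is not given in the sources used here. Rows sharing 1 of 64 repeated symbols were summed, and the row Metazoa_SRP, which names no gene and took at most 0.00861% of a library, was left out. No collagen symbol was repeated. Groups came from the sample titles.

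Genes were kept by filterByExpr, scaled by TMM and tested with edgeR 4.0.16 (quasi-likelihood, robust, stretch minus doxorubicin, Benjamini-Hochberg over 11230 genes, threshold 0.05) in R 4.3.3. Standard errors come from dividing each log2 fold change by the root of F, and 95% intervals are unadjusted. No 2 libraries agreed within sampling noise (chi-square per degree of freedom at least 8.02). Members and lists were chosen with earlier results of these data known. Named genes are collagens that passed or averaged at least 10 CPM, and, of each other list, those that passed and the 3 most abundant. COL4A1, COL4A6 over COL4A5, SERPINH1 and collagens of lower level were added after their values were seen, the last so that every member is accounted for. Alternatives were RLE, upper-quartile and no scaling factors, 2 other filters, DESeq2 1.42.0, limma-voom 3.58.1 with and without library quality weights, EIF4A2 left out, doxorubicin library 3 alone, and each library left out. Positions are from GENCODE 29 and promoter sequences from RefSeq (GRCh38.p14).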

Additional observations from a re-analysis of the deposited data

Results flagged for a closer look

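Among 47 sets of 4 stretch values examined, 4 had a library far from the other 3, and chance flags about 1 in 20. In each, stretch library 4 stood apart. LOXL2 was at 81.2 CPM there and at 27.4 to 35.7 CPM in the other stretch libraries, LAMA5 at 101 CPM and 52.4 to 59.7 CPM, THBS1 at 15.6 CPM and 7.64 to 8.97 CPM, and LAMC1 at 52.3 CPM and 90.3 to 95.6 CPM. None of the 17 tested collagens, 4 class sums or 2 chain ratios was flagged in this way.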

How the results depend on the processing

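No paired analysis was possible because the groups share no replicate number. The 2 collagens that passed became 0 with library totals alone, 1 with doxorubicin library 3 alone, 8 with voom and library quality weights, and 0 to 4 without single libraries. The 3 other pathway genes became 0, 1, 48 and 0 to 38 in the same settings, 1 when a mean level of 10 CPM was required, 22 with DESeq2 and 1 with limma-voom. The 261 genes in all became 13, 99, 5276 and 12 to 3736 in the same 4 settings, 147 when a mean level of 10 CPM was required and 1315 with DESeq2. Of the 8 collagens that passed with quality weights, 2 were higher in stretch, COL4A1 and COL4A6, and 6 were lower. Of the 4 that passed without doxorubicin library 3, COL4A1 was higher in stretch and 3 were lower. The cause of these moves in number was not tested.

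Over 10 named collagens and their alternatives, 140 of 170 values kept direction and call, 14 lost the call, 7 gained it and 9 changed sign; for 24 other pathway genes these were 327 of 407, 25, 29 and 26. No sign change was past the threshold. With library totals alone the log2 fold change was 0.44 for COL27A1, 0.21 for COL4A2, 0.041 for FKBP10, 0.093 for SEC31A, 0.32 for CTAGE5, 0.22 for TGM2, 0.033 for MRC2, 0.13 for CTSB, 0.69 for LAMC1 and 0.29 for LAMA5. With doxorubicin library 3 alone it was 0.33 for COL27A1, -0.25 for COL5A2, -0.11 for COL4A5, 0.086 for SEC31A, 0.55 for CTAGE5, 0.43 for CTSB, 0.31 for FN1 and 0.24 for LAMC1. With voom and quality weights it was -0.11 for COL5A2, 0.14 for COL4A2, -0.25 for ITGB1 and -0.29 for THBS1, and with voom alone -0.042 for THBS1. Without single libraries COL5A2 ran from -0.27 to 0.30, COL4A2 from -0.62 to 0.71, ITGB1 from -0.13 to 0.31, PEPD from -0.025 to 0.27, THBS1 from -0.26 to 0.14 and LAMC1 from -0.26 to 0.056. The chain ratios kept their direction, with differences without single libraries of at least 1.84 for COL5A2 over COL5A1 and of -1.07 to -0.59 for COL6A2 over COL6A1.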
